A study of Arabidopsis thaliana with 16 samples.

Results

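Auxin is the hormone that seedlings make in larger amounts when they meet the light of a canopy, and 7 genes of its synthesis and early response are described here across light conditions and genotypes. They are YUC2 (AT4G13260) and YUC4 (AT5G11320), which encode enzymes of auxin synthesis, IAA29 (AT4G32280) and HAT2 (AT5G47370), which encode regulators of transcription, and WES1 (AT4G27260), GH3.3 (AT2G23170) and GH3.17 (AT1G28130), which encode enzymes that conjugate auxin to amino acids. The genes were chosen by name, with earlier results of these data known, and each was read by the probe set annotated to it alone. All 7 were found, each with 1 such probe set, among the 13356 genes that have a probe set of their own in the annotation used.

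RNA was taken from whole Arabidopsis thaliana seedlings of the Col-0 background and measured on 16 Affymetrix arrays. The phyA-211 mutant carries a null allele of the gene for phytochrome A, the photoreceptor that senses far-red light, and was set against the wild type (WT). All seedlings grew for 5 days in continuous white light and were then kept for 24 h in 1 of 3 lights. The white light measured 45 µmol m-2 s-1. In the same unit, the LEDs used for shade gave 13 of red, 3.5 of blue and 21 of far-red light (R:FR of 0.7), and those used for strong shade gave 3 of red, 3.5 of blue and 30 of far-red light (R:FR of 0.1). The groups were phyA white (2 arrays), phyA shade (3), phyA strong shade (3), WT white (2), WT shade (3) and WT strong shade (3). The LED lights and the white light differed in source and in brightness as well as in ratio, so these cannot be told apart in any change from white light. From shade to strong shade, red fell from 13 to 3 and far-red rose from 21 to 30 along with the ratio. The amounts and the ratio cannot be told apart in that step either. Whether replicates were grown separately is not in the labels. All p-values therefore reflect the spread among these arrays only, and that spread may be technical.

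As background, auxin is made from tryptophan in a short pathway whose last step is carried out by the YUC flavin monooxygenases. Auxin acts by bringing about the breakdown of the Aux/IAA repressors, among them IAA29, and so frees the auxin response factors. These switch on early genes, including Aux/IAA genes themselves and the GH3 genes, whose enzymes in turn lower the free hormone. In shade, phytochrome B is inactivated, the PIF transcription factors become active, and YUC genes, IAA29 and class II HD-Zip genes such as HAT2 are known to be induced, while phytochrome A is known to restrain this response where far-red light is abundant.

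The arrays of a group correlated at 0.979 to 0.995 over all probe sets. Both phyA groups in LED light held an array that lay closer to the other group. The third phyA array in shade had a mean correlation of 0.986 with its own group and 0.993 with the first and second arrays in strong shade. The third phyA array in strong shade had a mean correlation of 0.981 with its own group and 0.991 with the first and second arrays in shade. Whether these 2 arrays were exchanged was not tested. They were kept in their labelled groups, and values of the members are also given without them where these arrays move a value or a call. The genotype label could not be checked, because no probe set is annotated to PHYA alone. In the same way, a gene counts as measured below only where a probe set is annotated to it alone. Of the shoot markers, 3 of 6 were measured (RCA, LHCB4.1 and PSAN), and their summed intensity in phyA seedlings was 9511 to 10275 in white light, 5261 to 5794 in shade and 4556 to 5118 in strong shade. In WT seedlings it was 10465 to 10639 in white light, 8186 to 8303 in shade and 8226 to 9238 in strong shade. Of the root markers, 3 of 6 were measured (EXPA7, EXPA18 and PYK10), with sums of 2455 to 2523, 920 to 1305 and 779 to 1775 in phyA seedlings in white light, shade and strong shade, and of 2169 to 2497, 1367 to 1818 and 1151 to 1349 in WT seedlings in the same lights. The root sums were nearly all PYK10, whose geometric group means ran from 1029 to 2451. Those of EXPA7 ran from 7.39 to 19.9 and those of EXPA18 from 5.99 to 25.8. No seed marker was measured, and the only measured pollen marker of 5, AT5G45880, lay between 4.57 and 6.73 on all arrays. Marker levels thus moved with light and genotype, and their part in the results below was not tested. In whole seedlings, fewer cells that express a gene and less of its RNA per cell cannot be told apart.

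YUC2 was modestly higher in both LED lights in both genotypes. In phyA seedlings its log2 intensity was 3.78 and 3.83 in white light, 4.69, 4.42 and 4.24 in shade, and 4.36, 4.17 and 4.50 in strong shade. In WT seedlings the log2 intensity of YUC2 was 3.70 and 3.86 in white light, 4.84, 4.77 and 4.53 in shade, and 4.64, 4.44 and 4.58 in strong shade. Every LED array lay above every white-light array. The log2 change from white light in phyA seedlings was 0.65 ± 0.146 in shade (SE; 1.56-fold, limma adjusted p = 0.00188) and 0.54 ± 0.146 in strong shade (1.46-fold, adjusted p = 0.00647). In WT seedlings it was 0.94 ± 0.146 in shade (1.92-fold, adjusted p = 8.73e-05) and 0.78 ± 0.146 in strong shade (1.71-fold, adjusted p = 0.000422). Without the third phyA arrays the phyA changes were 0.75 and 0.47. Mean levels stood in the order WT shade, WT strong shade, phyA shade, phyA strong shade, phyA white, WT white, and the arrays of neighbours in that order overlapped except for phyA strong shade over phyA white.

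YUC4, the other synthesis gene, was dim and did not move upward. Its log2 intensity in phyA seedlings was 2.35 and 2.06 in white light, 1.66, 1.74 and 1.92 in shade, and 1.64, 1.84 and 1.92 in strong shade. In WT seedlings YUC4 had log2 intensities of 2.32 and 1.97 in white light, 2.27, 2.07 and 1.86 in shade, and 1.74, 1.77 and 2.01 in strong shade. On the arrays it stood between percentiles 1.1 and 26.3 of all probe sets, and arrays of all neighbours in the order of its group means overlapped. In phyA shade YUC4 fell by 0.43 on the log2 scale (SE 0.158, adjusted p = 0.0399). It fell by 0.50 without the third phyA arrays (adjusted p = 0.0251). The call was lost under several alternatives, for example with each array centred on its median (-0.33, adjusted p = 0.113) and without the first phyA array in white light (adjusted p = 0.314). The remaining changes of YUC4 from white light did not pass the test: -0.40 ± 0.158 in phyA strong shade (adjusted p = 0.051, and -0.46 with 0.0351 without the third phyA arrays), -0.07 ± 0.158 in WT shade and -0.30 ± 0.158 in WT strong shade.

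IAA29, the Aux/IAA repressor gene, was far higher in LED light than in white light in both genotypes. Its log2 intensity in phyA seedlings was 3.11 and 2.54 in white light, 7.39, 7.40 and 6.54 in shade, and 6.73, 6.12 and 7.55 in strong shade. For WT seedlings the IAA29 values were 2.1 and 2.50 in white light, 6.86, 7.38 and 7.39 in shade, and 6.24, 5.11 and 6.32 in strong shade. White-light arrays of both genotypes lay far below every LED array, at percentiles 31.8 and 40.2 of their own arrays in phyA seedlings and 17.0 and 28.8 in WT seedlings. The change of IAA29 in phyA seedlings was 4.28 ± 0.405 in shade (19.5-fold, adjusted p = 4.04e-07) and 3.97 ± 0.405 in strong shade (15.7-fold, adjusted p = 8.53e-07). In WT seedlings it was 4.91 ± 0.405 in shade (30.1-fold, adjusted p = 1.52e-07), place 11 from the top among 22746 probe sets, and 3.59 ± 0.405 in strong shade (12.1-fold, adjusted p = 3.13e-06), place 65. Without the third phyA arrays the phyA changes were 4.57 and 3.6. The size of the IAA29 changes depends on the scale: with 16 added to every intensity before the log2, the phyA changes were 2.74 and 2.47 and the WT changes 2.97 and 1.87, all still called. On that scale WES1 had the larger change in WT seedlings (3.37 and 2.99), whereas with no value added IAA29 did. In falling order, its mean levels were 7.21 ± 0.305 in WT shade, 7.11 ± 0.492 in phyA shade, 6.80 ± 0.716 in phyA strong shade, 5.89 ± 0.677 in WT strong shade, 2.83 ± 0.403 in phyA white and 2.30 ± 0.284 in WT white (SD). The arrays of the highest 4 groups overlapped with those of their neighbours in this order.

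HAT2 encodes a class II HD-Zip transcription factor that is induced by auxin and by shade. In phyA seedlings HAT2 had log2 intensities of 5.29 and 5.49 in white light, 7.07, 7.08 and 6.40 in shade, and 6.59, 6.30 and 7.12 in strong shade. In WT seedlings HAT2 had 5.45 and 5.71 in white light, 7.24, 7.31 and 7.48 in shade, and 6.89, 6.57 and 6.82 in strong shade. All LED arrays lay above all white-light arrays, and the arrays in WT shade lay above those of every other group. HAT2 rose in phyA shade by 1.46 ± 0.226 (2.75-fold, adjusted p = 6.84e-05) and in phyA strong shade by 1.28 ± 0.226 (2.42-fold, adjusted p = 0.000228). It rose in WT shade by 1.76 ± 0.226 (3.38-fold, adjusted p = 1.35e-05) and in WT strong shade by 1.18 ± 0.226 (2.26-fold, adjusted p = 0.000522). The phyA changes were 1.68 and 1.05 without the third phyA arrays. Mean levels stood in the order WT shade, phyA shade, WT strong shade, phyA strong shade, WT white, phyA white, and only the first step and the step down to white light were free of overlap between arrays.

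WES1, also called GH3.5, encodes a GH3 enzyme that conjugates auxin to amino acids, and it showed a strong rise in LED light with little spread between arrays. Its log2 intensity in phyA seedlings was 5.78 and 5.67 in white light, 9.93, 9.89 and 10.07 in shade, and 10.33, 10.13 and 9.93 in strong shade. For WT seedlings the WES1 values were 5.63 and 5.69 in white light, 9.40, 9.28 and 9.49 in shade, and 9.09, 9.06 and 8.87 in strong shade. The genotypes overlapped in white light and were separate in both LED lights, with every phyA array above every WT array. WES1 rose in phyA shade by 4.24 ± 0.128 (18.9-fold, adjusted p = 7.44e-12) and in phyA strong shade by 4.41 ± 0.128 (21.2-fold, adjusted p = 4.15e-12). It rose in WT shade by 3.73 ± 0.128 (13.3-fold, adjusted p = 2.9e-11) and in WT strong shade by 3.35 ± 0.128 (10.2-fold, adjusted p = 6.44e-11). The phyA changes of WES1 were 4.19 and 4.51 without the third phyA arrays. Mean levels were 10.13 ± 0.202 in phyA strong shade, 9.96 ± 0.0947 in phyA shade, 9.39 ± 0.102 in WT shade, 9.01 ± 0.116 in WT strong shade, 5.73 ± 0.0746 in phyA white and 5.66 ± 0.0453 in WT white. In this order phyA shade, WT shade and WT strong shade were each separate from the next group below.

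GH3.3, another conjugating GH3 gene, was higher in LED light with a wide spread between arrays. In phyA seedlings GH3.3 had log2 intensities of 5.52 and 4.99 in white light, 7.56, 7.40 and 7.03 in shade, and 6.94, 6.50 and 8.40 in strong shade. In WT seedlings GH3.3 had 5.66 and 5.53 in white light, 6.90, 7.30 and 7.65 in shade, and 6.90, 5.76 and 7.34 in strong shade. The value of 8.40, its highest, came from the third phyA array in strong shade, and the value of 5.76 in WT strong shade lay just above white light. GH3.3 rose in phyA shade by 2.07 ± 0.47 (4.21-fold, adjusted p = 0.00194), in phyA strong shade by 2.03 ± 0.47 (4.07-fold, adjusted p = 0.00225) and in WT shade by 1.69 ± 0.47 (3.22-fold, adjusted p = 0.00957). In WT strong shade the change of 1.07 ± 0.47 did not pass the test (adjusted p = 0.0873). It passed without the second WT strong shade array (1.53, adjusted p = 0.0143) and without the third phyA arrays, which share the estimate of spread (adjusted p = 0.0178). With all arrays kept, it also passed with median centring (1.20, adjusted p = 0.0452). It passed too with only the groups compared in the model, which leaves out the arrays of the other groups (adjusted p = 0.0377). The call in WT shade was lost without the second WT white array (adjusted p = 0.0658). Without the third phyA arrays the phyA changes were 2.23 and 1.47, both called. Mean levels of GH3.3 stood in the order phyA shade, WT shade, phyA strong shade, WT strong shade, WT white, phyA white, and the arrays of the first 4 groups overlapped with those of their neighbours.

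GH3.17, the third conjugating gene, changed little. Its log2 intensity in phyA seedlings was 6.29 and 6.52 in white light, 6.57, 6.59 and 6.48 in shade, and 6.73, 6.46 and 6.72 in strong shade. For WT seedlings the GH3.17 values were 6.29 and 6.58 in white light, 6.83, 6.82 and 7.20 in shade, and 7.08, 6.92 and 6.70 in strong shade. WT arrays in LED light lay above those in white light, whereas phyA arrays overlapped between lights. The changes of GH3.17 in phyA seedlings, 0.14 ± 0.154 in shade (adjusted p = 0.526) and 0.23 ± 0.154 in strong shade (adjusted p = 0.27), did not pass the test and were 0.17 and 0.19 without the third phyA arrays. In WT seedlings it rose by 0.52 ± 0.154 in shade (adjusted p = 0.0145) and by 0.46 ± 0.154 in strong shade (adjusted p = 0.0244). Both WT calls were lost without the first WT white array (adjusted p = 0.179 and 0.246), and each was lost without at least 1 of its own LED arrays, the third in shade (adjusted p = 0.0684) and the first or the second in strong shade (adjusted p = 0.0954 and 0.0571). The difference between the genotypes in the response did not pass the test either, at -0.38 in shade (95% interval -0.84 to 0.09) and -0.24 in strong shade (-0.70 to 0.23). The arrays of all neighbours in the order of its 6 group means overlapped.

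**Figure D1:**
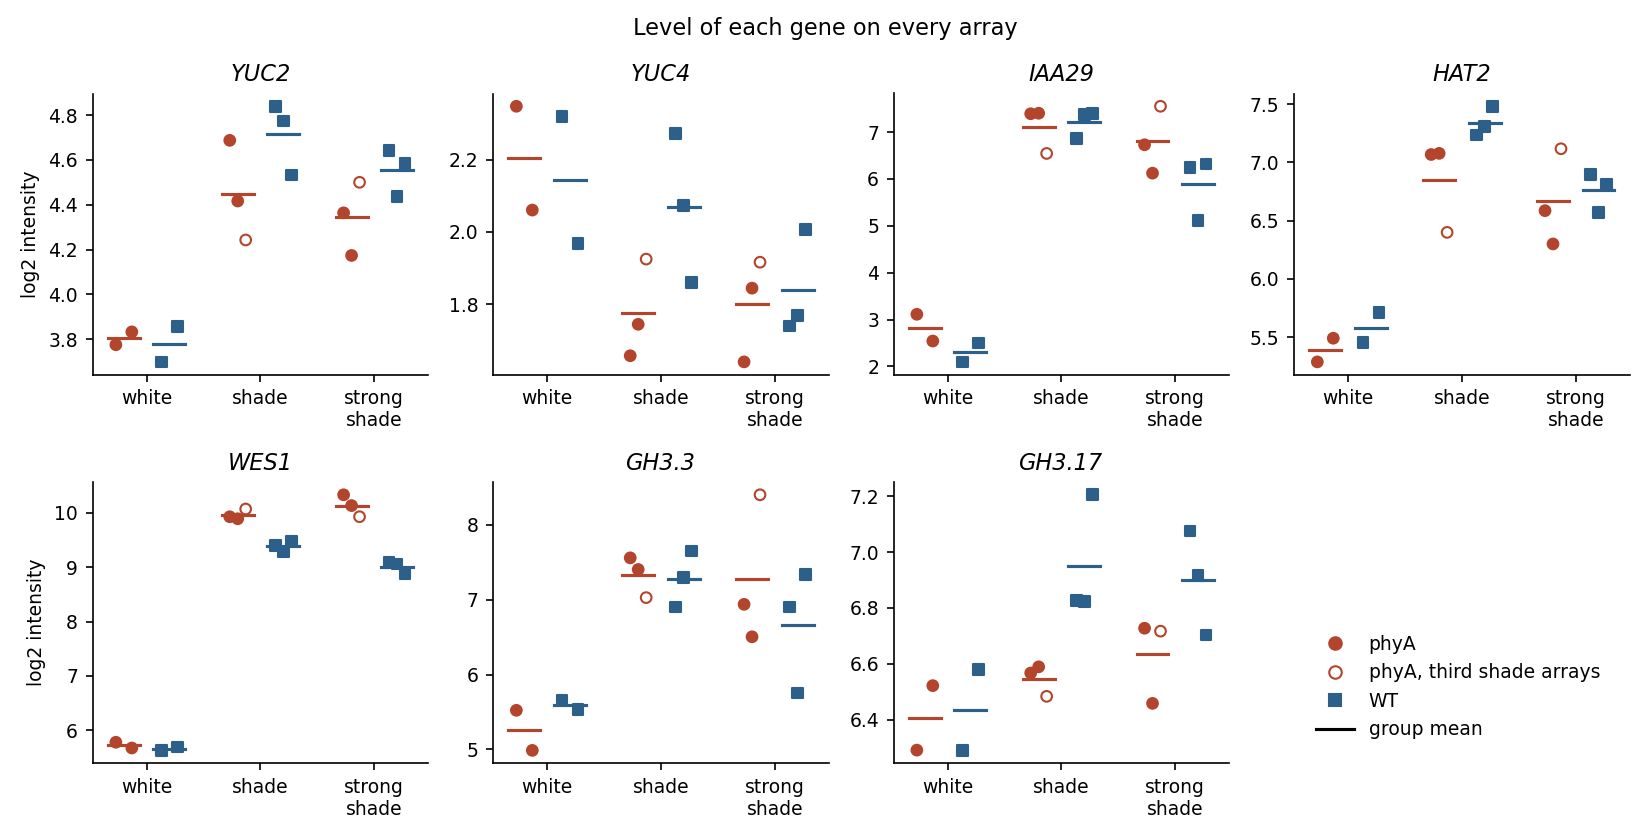
Log2 intensity of each of the 7 genes on every array (vertical axis) by light, with phyA left of WT; points are arrays, horizontal bars are group means, and open circles mark the third phyA arrays of shade and strong shade. IAA29, WES1, GH3.3, HAT2 and YUC2 lie higher in LED light in both genotypes, and WES1 has every phyA array above every WT array there, at 9.89 or more against 9.49 or less in shade.

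Of the 7 genes, 5 rose and 1 fell in phyA shade against phyA white, where 20.7% of all probe sets were called higher and 20.1% lower. In phyA strong shade against phyA white 5 rose and none fell, against 21.7% and 20.3% of all probe sets. For WT shade against WT white 6 rose and none fell, where 16.9% of all probe sets were called higher and 19.6% lower. In WT strong shade against WT white 5 rose and none fell, against 18.0% and 21.2% of all probe sets. YUC2, IAA29, HAT2 and WES1 were called higher in all 4 of these comparisons. Arrays in LED light and in white light did not overlap for 6 of the 7 genes in each of them, as for 59.3% of all probe sets in phyA shade, 58.4% in phyA strong shade, 55.9% in WT shade and 58.5% in WT strong shade. The median change of the 7 genes was 1.46 in phyA shade, 1.28 in phyA strong shade, 1.69 in WT shade and 1.07 in WT strong shade, beside medians over all probe sets of 0.03, 0.04, -0.02 and -0.00 in the same order. With arrays centred on their medians, the median of all probe sets shifted by at most 0.13 and none of these calls turned direction. Since the 7 genes were chosen with earlier results of these data known, the counts describe them and do not test the set.

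**Figure D2:**
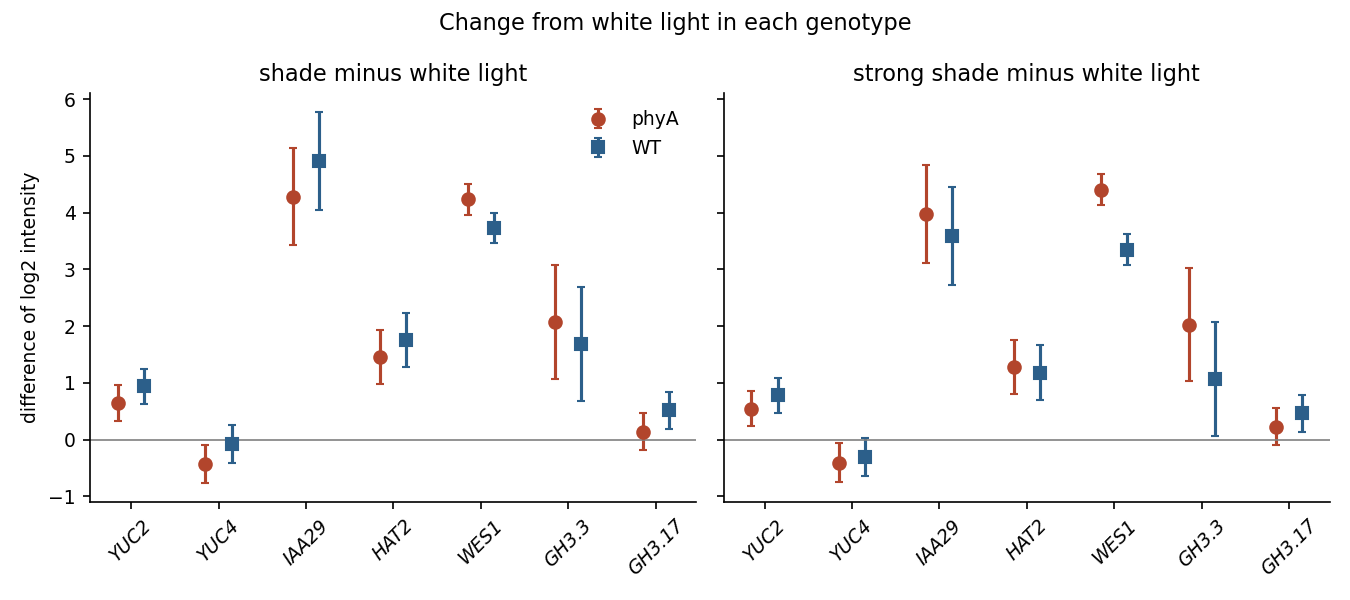
Change from white light in log2 intensity (vertical axis) for each gene, for shade on the left and strong shade on the right, with phyA as circles left of WT as squares; bars are 95% intervals from limma. IAA29 and WES1 have the largest changes, YUC4 lies at or below 0, and only for WES1 in strong shade (4.41 in phyA against 3.35 in WT) do the intervals stand clearly apart.

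Does loss of phytochrome A alter these genes? In white light no member was called between phyA and WT, where 0.154% of all probe sets were called in either direction. The log2 differences lay between -0.34 for GH3.3 and 0.53 for IAA29 (95% interval -0.42 to 1.47). The interval was narrower for WES1 (-0.23 to 0.36), YUC2 (-0.31 to 0.37), GH3.17 (-0.39 to 0.33) and YUC4 (-0.31 to 0.43), and widest for GH3.3 (-1.44 to 0.76). Arrays of the genotypes did not overlap for IAA29 and GH3.3, as for 39.6% of all probe sets. Over all probe sets, 1539 had an unadjusted p under 0.05 in this comparison.

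In shade, WES1 alone of the 7 was called between phyA and WT, and it was higher in phyA by 0.57 ± 0.114 (1.49-fold, 95% interval 0.33 to 0.82, adjusted p = 0.00632). Among all probe sets 1.19% were called higher and 3.59% lower in phyA. Without the third phyA arrays the WES1 difference was 0.52 (adjusted p = 0.0131). HAT2 had lower values in phyA on every array, 7.07, 7.08 and 6.40 against 7.24, 7.31 and 7.48 in WT, but its difference of -0.49 ± 0.202 did not pass the test (adjusted p = 0.226) and was -0.27 without the third phyA arrays (adjusted p = 0.373). Arrays of phyA and WT shade also did not overlap for WES1 and GH3.17 (-0.40 ± 0.137, adjusted p = 0.125), whereas 20.6% of all probe sets had such separation in 1 direction or the other. IAA29 differed by -0.10 (95% interval -0.87 to 0.67) and GH3.3 by 0.05 ± 0.42, and without the third phyA arrays by 0.19 and 0.20, so neither has a settled direction. YUC2 (-0.27), YUC4 (-0.29) and GH3.17 did not pass the test with these arrays or without them, where their values were -0.16, -0.37 and -0.37.

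In strong shade, WES1 was again the only member called, and it was higher in phyA by 1.13 ± 0.114 (2.18-fold, 95% interval 0.88 to 1.37, adjusted p = 5.54e-06), where 5.43% of all probe sets were called higher and 6.26% lower. The difference was 1.23 without the third phyA arrays (adjusted p = 2.61e-06). IAA29 was 6.73, 6.12 and 7.55 in phyA against 6.24, 5.11 and 6.32 in WT, and its difference of 0.91 ± 0.362 (95% interval 0.14 to 1.68) did not pass the test (adjusted p = 0.132). It rested in part on the third phyA array: it was 0.53 (adjusted p = 0.315) without the third phyA arrays, and 1.25 with an adjusted p of 0.0395 without the second phyA strong shade array. Without the second WT strong shade array the IAA29 difference was 0.52 (adjusted p = 0.466). Differences of the other 5 genes lay between -0.26 for GH3.17 and 0.62 for GH3.3, and none passed the test. Without the third phyA arrays GH3.3 stood at 0.06, and the 5 lay between -0.32 for HAT2 and that value, again with none called. WES1 was also the only member whose arrays did not overlap between the genotypes, as for 26.6% of all probe sets.

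Whether the change from white light itself differed between genotypes was tested as a difference of differences. For strong shade, WES1 rose more in phyA than in WT, by 1.06 ± 0.181 on the log2 scale (95% interval 0.68 to 1.45, adjusted p = 0.00258), and no other member was called, where 1.12% of all probe sets were called higher and 2.55% lower. The WES1 value was 1.16 without the third phyA arrays (adjusted p = 0.00062). The intervals of the others included 0. Those of IAA29 (-0.84 to 1.60), GH3.3 (-0.46 to 2.37) and HAT2 (-0.58 to 0.78) hold genotype differences of sizable folds in either direction. The intervals of YUC2 (-0.67 to 0.20) and GH3.17 (-0.70 to 0.23) reach less far upward. When the third phyA arrays were left out, IAA29 stood at 0.00, GH3.3 at 0.40 and HAT2 at -0.12, beside 0.38, 0.96 and 0.10 with them. For shade none of the 7 was called (1.05% of all probe sets in either direction, and 2396 with an unadjusted p under 0.05), with WES1 at 0.51 ± 0.181 (adjusted p = 0.28) and IAA29 at -0.63 (95% interval -1.85 to 0.59). Leaving out the third phyA arrays gave 0.46 for WES1 and -0.34 for IAA29, and HAT2 stood at -0.08, beside -0.30 with them. With 16 added before the log2, IAA29 stood at -0.23.

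The shade conditions were also compared with each other, strong shade against shade. In WT all 7 genes had lower means in strong shade, by 0.05 to 1.32 on the log2 scale, although GH3.17, at -0.05, turned to 0.01 with arrays centred on their medians. None was called, where 0.659% of all probe sets were called in either direction and 3142 had an unadjusted p under 0.05. IAA29 changed by -1.32 ± 0.362 (95% interval -2.09 to -0.55, adjusted p = 0.11), HAT2 by -0.58 ± 0.202 (adjusted p = 0.205) and WES1 by -0.38 ± 0.114 (adjusted p = 0.137), each with arrays that did not overlap between the lights, as for 22.4% of all probe sets. These values come from WT arrays alone, but the spread is shared with the phyA groups. When the third phyA arrays were left out, IAA29, HAT2 and WES1 passed the test with the same changes (adjusted p = 0.0102, 0.0119 and 0.0393). IAA29 and HAT2 passed with array weights (adjusted p = 0.0111 and 0.0311) and with only the groups compared in the model (0.0379 and 0.0339).

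In phyA seedlings strong shade against shade gave changes between -0.31 for IAA29 (95% interval -1.08 to 0.46) and 0.17 for WES1. No member was called, as no probe set of 22746 was in this comparison (0.0%), although 852 had an unadjusted p under 0.05. Arrays of the lights overlapped for all 7 genes and failed to overlap for 7.68% of all probe sets. Without the third arrays the changes were -0.97 ± 0.338 for IAA29 (adjusted p = 0.139), -0.76 ± 0.371 for GH3.3 (adjusted p = 0.324), -0.63 ± 0.153 for HAT2 (adjusted p = 0.0328) and 0.32 ± 0.127 for WES1 (adjusted p = 0.197), so HAT2 was then called lower in strong shade. The third phyA array in strong shade had the highest value of its group for IAA29, GH3.3, HAT2, YUC2 and YUC4 and the lowest for WES1. The third phyA array in shade had the lowest value of its group for IAA29, GH3.3, GH3.17, HAT2 and YUC2 and the highest for WES1 and YUC4. The difference between genotypes in this step was positive for all 7 genes and called for none (0.0% of all probe sets, 1631 with an unadjusted p under 0.05). Its median was 0.40 for the 7 genes and 0.01 over all probe sets. The direction of the difference depended on the same arrays. IAA29 stood at 1.01 ± 0.512 with them and 0.35 without them, and WES1 at 0.55 ± 0.162 and 0.71 ± 0.163. Without them GH3.3 (-0.14), HAT2 (-0.05) and YUC2 (-0.12) turned negative. With all arrays centred on their medians YUC2 also turned, to -0.004.

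**Figure D3:**
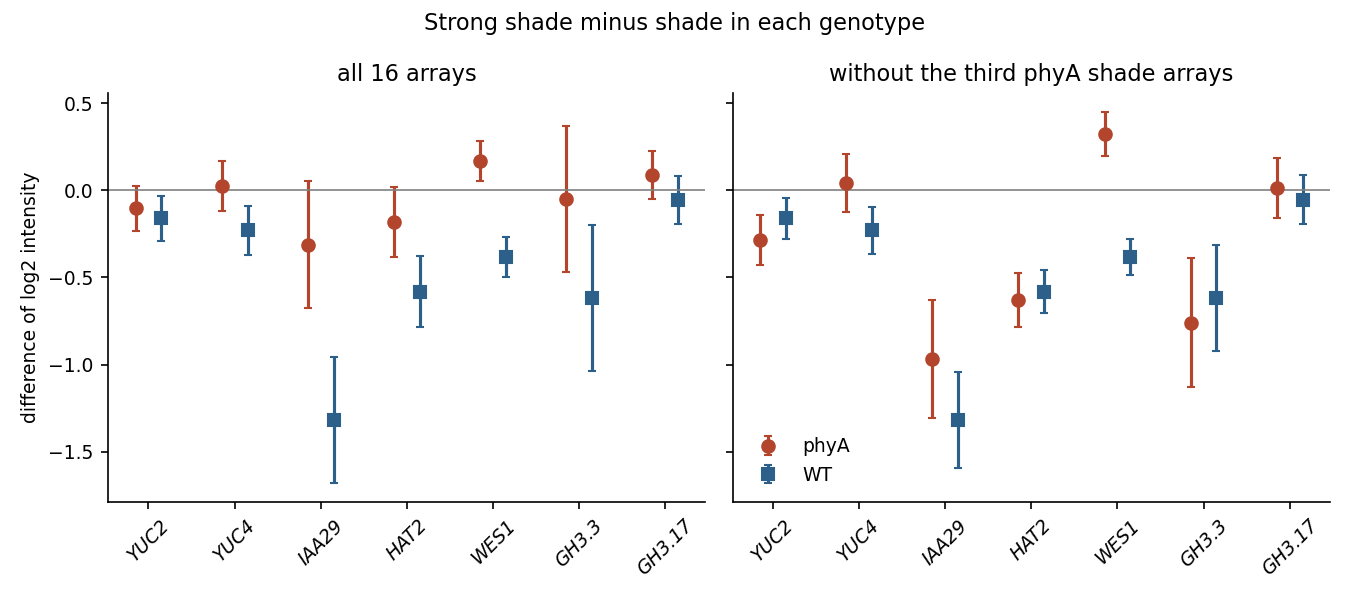
Strong shade minus shade in log2 intensity (vertical axis) for each gene, with all arrays on the left and without the third phyA arrays on the right; phyA values are circles left of WT squares, and bars are standard errors. All 7 WT values are negative, and the phyA value of IAA29 is -0.31 on the left and -0.97 on the right.

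For the rest of the pathway, lists with 133 genes in all were looked up, but only 23 have a probe set of their own that is named here, 16 of them not among the 7. The receptor, auxin response factor and transport lists had no gene with such a probe set. The annotation lists no gene for 8730 of 22746 probe sets, so genes counted as not measured may still be on the array. Of 20 synthesis genes listed 4 were measured, and besides YUC2 and YUC4 these were YUC6 and YUC11. Both are dim (mean levels at percentiles 36.2 and 25.5 of all probe sets), and neither was called in any comparison. YUC11 was called lower in phyA strong shade than in phyA white with array weights (-0.36, adjusted p = 0.0304). The same held with the replicate number as a block (-0.35, adjusted p = 0.0361). Of 14 shade signalling genes 2 were measured. FHL, which carries phytochrome A into the nucleus, was higher in phyA than in WT in strong shade by 3.3 ± 0.225, and HYH, a transcription factor of light signalling, was lower (-1.66 ± 0.123). HAT2 was the only measured gene of 9 class II HD-Zip genes listed.

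Among the Aux/IAA repressors 7 of 29 were measured. In phyA seedlings 5 of 7 rose in shade and 5 of 7 in strong shade, where 20.7% and 21.7% of all probe sets were called higher, and both counts were the same without the third phyA arrays. These were IAA29, IAA30 (0.79 and 1.08), IAA34 (0.69 and 0.60), IAA18 (0.56 and 0.50) and IAA20 (0.47 and 0.56). With 1 phyA array left out in turn the counts were 4 to 5 in shade and 3 to 5 in strong shade. IAA34 was the least stable: it lost its call under 5 of 16 alternatives in shade and 8 of 16 in strong shade, among them 16 added before the log2 (0.16 and 0.14) and leaving out the first phyA white array (0.49 and 0.40). IAA20 lost its call in shade without the second phyA white array (adjusted p = 0.0919), and IAA18 in strong shade without the first (0.0558) and with cyclic loess (0.0605). In WT seedlings only IAA29 of the 7 was called in either light, where 16.9% of all probe sets were called higher in shade and 18.0% in strong shade. With each array centred on its median the WT counts were 3 in shade and 2 in strong shade. The genotype difference in the response was called for IAA30 alone of the 7, in strong shade. In white light IAA20 averaged 2.06 in phyA and 2.53 in WT, IAA18 6.36 and 6.57, and IAA34 1.88 and 2.08, none called. In shade and strong shade IAA20 averaged 2.53 and 2.62 in phyA and 2.50 and 2.60 in WT. IAA18 averaged 6.91 and 6.85 in phyA and 6.86 and 6.81 in WT. IAA34 averaged 2.57 in phyA shade and 2.099 in WT shade. The part of the white-light levels in the phyA calls was not tested. IAA20 and IAA34 are dim (percentiles 30.2 and 24.1 of all probe sets).

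IAA30, a non-canonical Aux/IAA that lacks the motif by which auxin receptors bind, averaged 2.97 in white light, 3.76 in shade and 4.05 in strong shade in phyA seedlings, and 3.32, 3.45 and 3.04 in the same lights in WT seedlings. In strong shade it was higher in phyA by 1.02 ± 0.147 (2.02-fold, adjusted p = 0.000185). The response of IAA30 to strong shade was larger in phyA by 1.36 ± 0.232 (adjusted p = 0.00252), and by 1.35 without the third phyA arrays. Its level is low, and with 16 added before the log2 the difference was 0.55, still called.

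Of 11 GH3 genes listed 5 were measured, the 3 members together with GH3.1 and GH3.9. GH3.1, dim at percentile 25.5 of all probe sets, was not called in any comparison. GH3.9 fell in WT seedlings by 0.74 in shade (SE 0.152) and by 0.85 in strong shade (SE 0.152). However, GH3.9 is dim, with its mean level at percentile 17.7 of all probe sets, and its WT white arrays stood at 2.51 and 3.01. Its changes in phyA seedlings were -0.39 and -0.36 and did not pass the test. The genotype difference in the response of GH3.9, at 0.35 in shade and 0.49 in strong shade, was not called. Of 12 genes of auxin release, oxidation and ester forms 4 were measured. AT1G14130 rose in phyA seedlings by 0.98 in shade, a call lost without the first phyA white array (0.63, adjusted p = 0.0832), and by 1.22 in strong shade. It was higher in phyA than in WT in strong shade by 0.84 ± 0.207 (adjusted p = 0.0132), a call lost without the third phyA arrays (adjusted p = 0.0531). AT1G14120 fell in phyA seedlings by 1.33 in shade and by 1.09 in strong shade. Both calls were lost without the second phyA white array (-0.96, adjusted p = 0.136, and -0.72, adjusted p = 0.271). The strong shade call was also lost without the first or the second phyA strong shade array (adjusted p = 0.0591 and 0.113) and with only the groups compared in the model (0.0671). In WT seedlings AT1G14130 changed by 0.59 in shade and 0.50 in strong shade, and AT1G14120 by -0.15 and -0.84, none called. AT1G14130 in WT shade passed under several alternatives, among them only the groups compared (adjusted p = 0.0408), median centring (0.034) and array weights (0.022). In WT strong shade it passed with median centring (0.0387). AT1G14120 in WT strong shade passed with only the groups compared (0.00175), array weights (0.0372) and the third phyA arrays left out (0.0308). For neither gene was the genotype difference in the response called. UGT84B1, which attaches glucose to auxin, rose in phyA strong shade by 0.55 ± 0.146, a call lost without the first phyA white array (0.47). It is dim, with its mean level at percentile 27.7 of all probe sets.

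**Figure D4:**
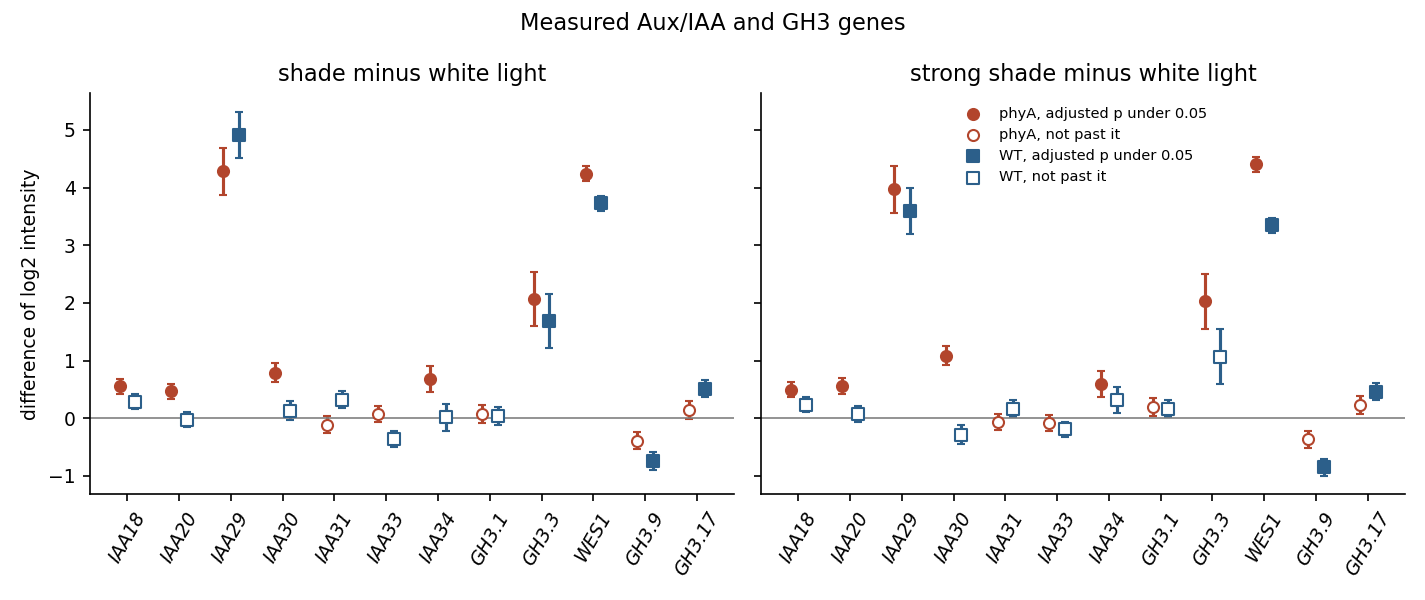
Change from white light in log2 intensity (vertical axis) of the measured Aux/IAA and GH3 genes, for shade on the left and strong shade on the right, with phyA as circles left of WT as squares; filled symbols passed the test, open ones did not, and bars are standard errors. IAA29 and WES1 stand far above the other genes of their families, GH3.3 follows at 2.07 in phyA shade, and GH3.9 lies lowest, at -0.85 in WT strong shade.

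The genes whose 6 group means ran closest to those of each member were found by the root mean square difference of centred log2 means over the 6 groups. For WES1 these were AT5G02540 at 0.169, SIS at 0.199 and AT1G05340 at 0.210. The same 3 genes were closest to IAA29, SIS at 0.285, AT1G05340 at 0.298 and AT5G02540 at 0.390. HAT2 was closest to AT3G19100 at 0.141, and GH3.3 to AT5G61820 at 0.0902. Genes that change little lie close to many others, and the nearest gene was at 0.0547 for YUC2 (AT3G12350), 0.0400 for GH3.17 (AT5G10970) and 0.0275 for YUC4 (AT2G44670). Among the members the closest pairs were YUC2 with GH3.17 at 0.199, GH3.3 with HAT2 at 0.296 and GH3.17 with YUC4 at 0.315. IAA29 stood closest to WES1, at 0.397, and IAA29 and YUC4 were farthest apart at 2.16.

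**Figure D5:**
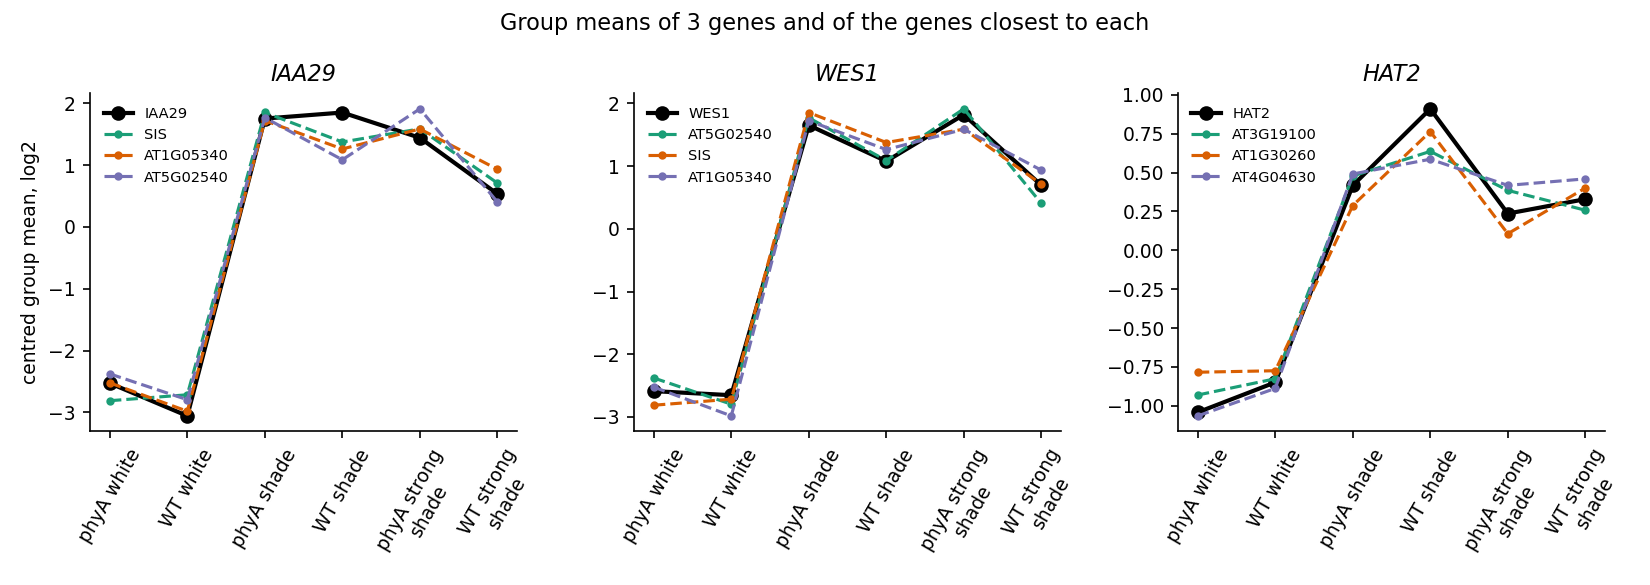
Centred group means in log2 intensity (vertical axis) over the 6 groups (horizontal axis) for IAA29, WES1 and HAT2, as solid lines, and for the 3 genes nearest to each, as dashed lines. SIS, AT1G05340 and AT5G02540 lie close to both IAA29 and WES1, within root mean square differences of 0.390 and 0.210.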

How the data were processed

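Each of the 16 arrays measured whole-seedling RNA. The deposited table holds intensity values on a linear scale, which per the submitters' processing notes the authors made by RMA with affy (version not given in the sources used here). Intensity values ran between 2.33 and 6167, with array medians of 13.5 to 15.1, and log2 was taken with no pseudocount and no further scaling. RMA compresses dim signals, and the number of arrays limits the precision. Of 22746 probe sets, 13513 had 1 gene in the platform annotation, 503 several and 8730 none listed; 13436 of the 13513 matched a gene table of assembly TAIR10.1, used for names only.

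Groups and replicate numbers came from the labels. limma 3.58.1 in R 4.3.3 fitted 1 mean for each of 6 groups to all 16 arrays with eBayes, and 12 comparisons were made. P-values were adjusted by Benjamini-Hochberg across the 22746 probe sets, with calls at adjusted p under 0.05. Values after ± are the SE of a log2 difference or, for means, the SD. The procedure was tested on simulated data. The labels do not say whether replicate numbers pair the samples. Of 36 same-number pairs, 7 had deviations that correlated above 0.1 (range -0.58 to 0.32). Between phyA and WT in the same light, these correlations were 0.001, 0.245 and 0.101 in shade. They were -0.046, 0.318 and 0.157 in strong shade, and 0.040 for both pairs in white light. Deviations within a group of 2 arrays mirror each other, so the check cannot exclude a pairing.

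The members and gene lists were chosen with earlier results of these data known. All 7 members are named, with at most 4 called genes of a list in a comparison, those of largest change, and the 3 genes nearest each member; genes named as not called fall outside that rule. Alternatives were median centring, cyclic loess, dropping the dimmest 40% of probe sets, adding 16 before log2, trended or robust variance, array weights, only the groups compared, a replicate block, 1 probe set per gene, an absolute log2 change of at least 1, and single arrays left out. Dropping the third phyA arrays together was added after seeing the data.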

Additional observations from a re-analysis of the deposited data

Results flagged for a closer look

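A difference between the genotypes in the response to strong shade passed the test for WES1 and for IAA30. The log2 change of WES1 from white light was larger in phyA by 1.06 (SE 0.181, adjusted p = 0.00258), with 4.41 in phyA and 3.35 in WT. Over all alternatives this difference lay between 0.96 and 1.16, and each of them kept the call. The log2 change of IAA30 was larger in phyA by 1.36 (SE 0.232, adjusted p = 0.00252), with 1.08 in phyA and -0.28 in WT. Its alternatives gave 0.55 to 1.54, and each of them kept the call. Summed shoot marker intensity also differed between genotypes in strong shade, at 4556 to 5118 in phyA and 8226 to 9238 in WT, and its part in these differences was not tested. No group had 4 or more arrays, so single arrays were not tested as outliers.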

How the results depend on the processing

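No called result changed direction under the alternatives run, and most single-gene values kept their side of the threshold (4482 the same, 44 gained a call and 58 lost one). Requiring an absolute log2 change of at least 1 took the called members to 0 in phyA shade against WT shade (WES1 at 0.57) and to 3 in WT strong shade against white light, by construction. In phyA strong shade against WT strong shade the count was 1 to 2 with each array left out in turn. In strong shade against shade, the WT count of 0 became 2 with array weights, 2 with only the groups compared in the model and 3 without the third phyA arrays, and the phyA count of 0 became 1 without them. The numbers of all probe sets called also moved: strong shade against shade in WT had 150 calls, but 1305 with array weights, 848 with only the groups compared, 1421 without the third phyA arrays, 80 with 16 added and 31 to 123 with single arrays left out, and in phyA it had 0, but 874 without the third arrays. Array weights gave 1642 calls in phyA shade against WT shade (1086 as reported), 429 for the genotype difference in the shade response (239; 367 without the third phyA arrays, 109 to 270 with single arrays left out) and 1361 for that in strong shade (833; 463 to 926). The white-light genotype comparison had 35 calls, with 13 to 69 under the alternatives that test all probe sets, and the difference in the step had 0, with up to 15 without the third phyA arrays. Testing 1 probe set per gene, or asking for the minimum change, cut counts by construction. With each array centred on its median, the share of higher among all calls was 36.1% in phyA shade against WT shade, beside 24.9% uncentred, 51.3% in WT strong shade against shade, beside 40.7%, and 57.3% in WT strong shade against white light, beside 45.9%. With the replicate number as a block no member's call changed. For example, WES1's response difference in strong shade kept 1.06 with an adjusted p of 0.00647. Whether the numbers pair the samples is not in the labels. GH3.17 in WT strong shade lost its call with cyclic loess (adjusted p = 0.085), and YUC2 in phyA strong shade lost its call without the first phyA white array (0.0501). A second probe set of a member was not tried, because each member has 1. Where a white-light array was left out, the spread of the lone remaining one was taken from the other groups.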
